A study of Homo sapiens with 4 samples.

Results

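The genes described here are 47 interferon-stimulated genes and nucleic acid sensors. They were taken from a list of symbols: interferon-induced effectors, the receptor, STAT and IRF factors that carry the signal, and sensors of RNA and DNA, with MHC class I genes left out. All 47 were found among the 78686 features of the count sheets. The RNA came from HEK293 cells, a human line made by transforming embryonic kidney cells with adenovirus DNA. There were 2 libraries of wild-type (WT) cells and 2 of HEMK1 knockout (KO) cells, each made from 100 ng of total RNA and read as polyadenylated RNA. HEMK1 methylates release factors of mitochondrial translation. The KO cells were a single clone, grown from a sorted cell after transfection of pooled Cas9 plasmids with different guides, so the edit and any other feature of that clone cannot be told apart. The labels name no interferon, virus or nucleic acid treatment for either group, and both groups share the same serum-containing medium. The labels speak of biological replicates but do not say that they came from separate cultures, so each p-value rests on how much these libraries vary, which may be technical.

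Type I interferon binds a receptor of the chains IFNAR1 and IFNAR2. The kinases JAK1 and TYK2 then activate STAT factors such as STAT2, and STAT2 with IRF9 takes part in binding the interferon-stimulated response element (ISRE) in the promoters of induced genes. Interferon itself is made when RIG-I-like receptors meet viral or misplaced RNA and signal through MAVS on mitochondria, or when cGAS meets DNA and signals through STING1. HEK293 cells respond to added interferon, and many induced genes have a low basal level in unstimulated cells.

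Total counts ran from 2476471 to 3202039 per library, and between 20530 and 21639 genes had a count. HEMK1 had 6 and 9 counts in WT and 1 and 7 in KO libraries, a ratio of 0.455 with a 95% exact counting interval of 0.167 to 1.14, so its mRNA does not check the labels at this depth. Of 10 genes often read in HEK293 cells, VIM, CDH2, KRT8, KRT18, NEFL and NEFM were counted in every library, PAX2 and LHX1 had 0 counts in all, and EPCAM and INA had at most 2 counts in any library. Their summed level was 309 and 307 CPM (counts scaled to a common library total) in WT and 247 and 212 CPM in KO libraries. VIM gave the largest part of this sum, with 140 and 134 CPM (scaled by TMM, unlike the sums) in WT and 105 and 79.2 CPM in KO libraries, while NEFL went the other way with 31.6 and 35.7 against 37.6 and 41.5 CPM. Among 20 markers of blood and immune cells, 4 had 0 counts in all libraries. The summed level of these markers was 0.404 and 1.5 CPM in WT and 3.15 and 15.3 CPM in KO libraries. PTPRC, the common leukocyte antigen, had 0, 0, 0 and 1 counts, while LYZ and S100A9 had 13 and 9 counts in KO replicate 2 and 0 elsewhere. The 8 fibroblast markers, of which DCN and COL1A2 had 0 counts in all libraries, summed to 33.5 and 32.2 CPM in WT and 47.3 and 34.4 CPM in KO libraries. In bulk RNA, fewer cells of a type and less RNA per cell cannot be told apart, and the part of these markers in the results below was not tested.

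The promoters of many members carry the ISRE. RefSeq promoter sequences (GRCh38.p14, 250 bases before to 50 after each annotated start) were at hand for 35 of the 47 members, and 21 of these 35 (60.0%) had a match to the core letters GAAANNGAAA on either strand, against 4.38% of all 27305 symbols in the table. The core of the gamma-activated site, TTCNNNGAA, was matched in 9 of the 35 (25.7%) and in 9.38% of all symbols. Of 42 ISRE core matches, counted in each of 46 member promoter entries, 7 overlapped a match of the gamma-activated core. Sites in overlapping entries count more than once, as for IFI27 and IFI44, and so does the site that PARP9 and DTX3L share. A match is a description of letters and not of binding. The sequences here are the 170 bases before the start. They are those of the 4 tested members with an unadjusted edgeR p under 0.05. The others are those of IFIT1, the tested member with the next smallest p, and of ISG15, a low member described further on. Capitals mark the ISRE core matches on either strand. The 2 matches of ISG15 overlap each other, and those of IFI44L begin 164 and 73 bases before the start.
PARP9, chr3:122564301-122564470, minus strand: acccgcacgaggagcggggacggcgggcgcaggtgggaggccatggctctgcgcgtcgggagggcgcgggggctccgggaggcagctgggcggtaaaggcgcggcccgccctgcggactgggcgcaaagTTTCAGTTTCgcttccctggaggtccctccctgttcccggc
PARP14, chr3:122680669-122680838, plus strand: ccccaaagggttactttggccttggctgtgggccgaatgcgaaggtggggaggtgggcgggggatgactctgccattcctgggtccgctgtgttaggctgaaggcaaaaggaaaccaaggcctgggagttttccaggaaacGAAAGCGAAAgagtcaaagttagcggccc
IFI44L, chr1:78620278-78620447, plus strand: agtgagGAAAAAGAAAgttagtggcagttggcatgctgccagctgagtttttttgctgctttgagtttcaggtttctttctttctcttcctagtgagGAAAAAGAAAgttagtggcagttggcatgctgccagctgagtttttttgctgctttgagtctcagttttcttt
SAMD9, chr7:93117980-93118149, minus strand: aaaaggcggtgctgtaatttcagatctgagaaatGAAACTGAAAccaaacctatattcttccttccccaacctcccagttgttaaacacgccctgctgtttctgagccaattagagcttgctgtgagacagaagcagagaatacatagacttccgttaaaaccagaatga
IFIT1, chr10:89392453-89392622, plus strand: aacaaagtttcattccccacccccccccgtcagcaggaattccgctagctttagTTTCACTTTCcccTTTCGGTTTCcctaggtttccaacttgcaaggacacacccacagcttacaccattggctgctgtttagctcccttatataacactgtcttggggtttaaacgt
ISG15, chr1:1013327-1013496, plus strand: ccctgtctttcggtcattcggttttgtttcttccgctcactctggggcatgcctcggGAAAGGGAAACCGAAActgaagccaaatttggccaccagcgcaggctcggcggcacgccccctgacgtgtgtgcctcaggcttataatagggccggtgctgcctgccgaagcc

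**Figure D1:**
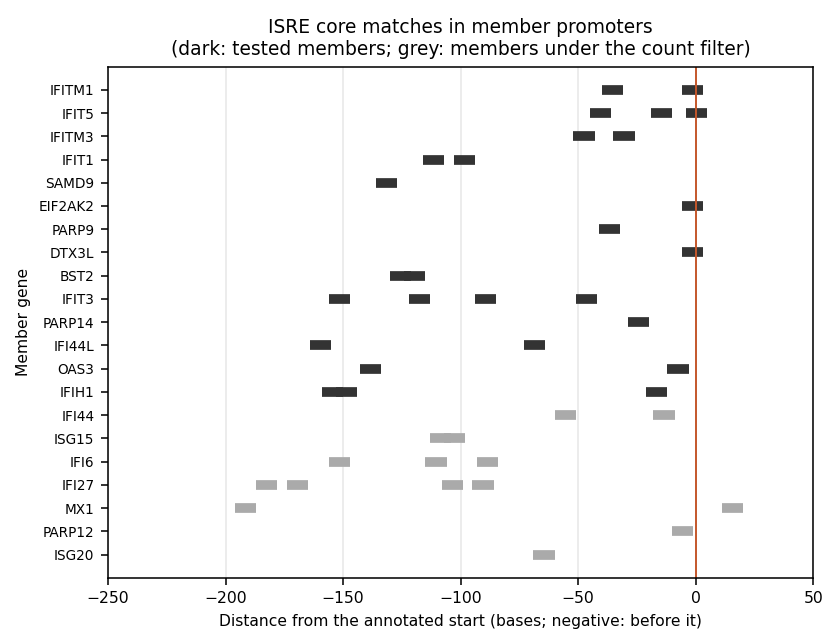
Positions of matches to the ISRE core in promoters of 21 members; the x axis is the distance in bases from the annotated start (line at 0), each block is a match of 10 bases, dark for members tested between groups and grey for members under the count filter. The match of PARP9 begins 41 bases before the start and that of SAMD9 136 bases before it.

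Basal levels spanned from no reads to well above the typical gene. Levels between genes are given as TPM, which divides counts by exon length (from GENCODE 29) before scaling to a common total. IFITM1, a membrane protein that blocks entry of enveloped viruses, was the highest member with 269 and 250 TPM in WT and 258 and 241 TPM in KO libraries. IFIT5, which binds viral RNA with a 5′ triphosphate, followed with 151 and 168 TPM in WT and 170 and 165 TPM in KO libraries. Its libraries lay apart from those of IFITM1 in both groups, so the order of these genes did not depend on the library. IFITM3, IFITM2, STAT2 and ADAR came next at means of 88.8, 76.1, 76.0 and 70.8 TPM, and their ranges over libraries overlapped, so their order is not resolved. These 6 genes made up 70.5% of the summed TPM of the 47 members. In all, 17 members reached 10 TPM, against a median of 14.5 TPM over all tested genes, and 15 members were under 1 TPM.

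**Figure D2:**
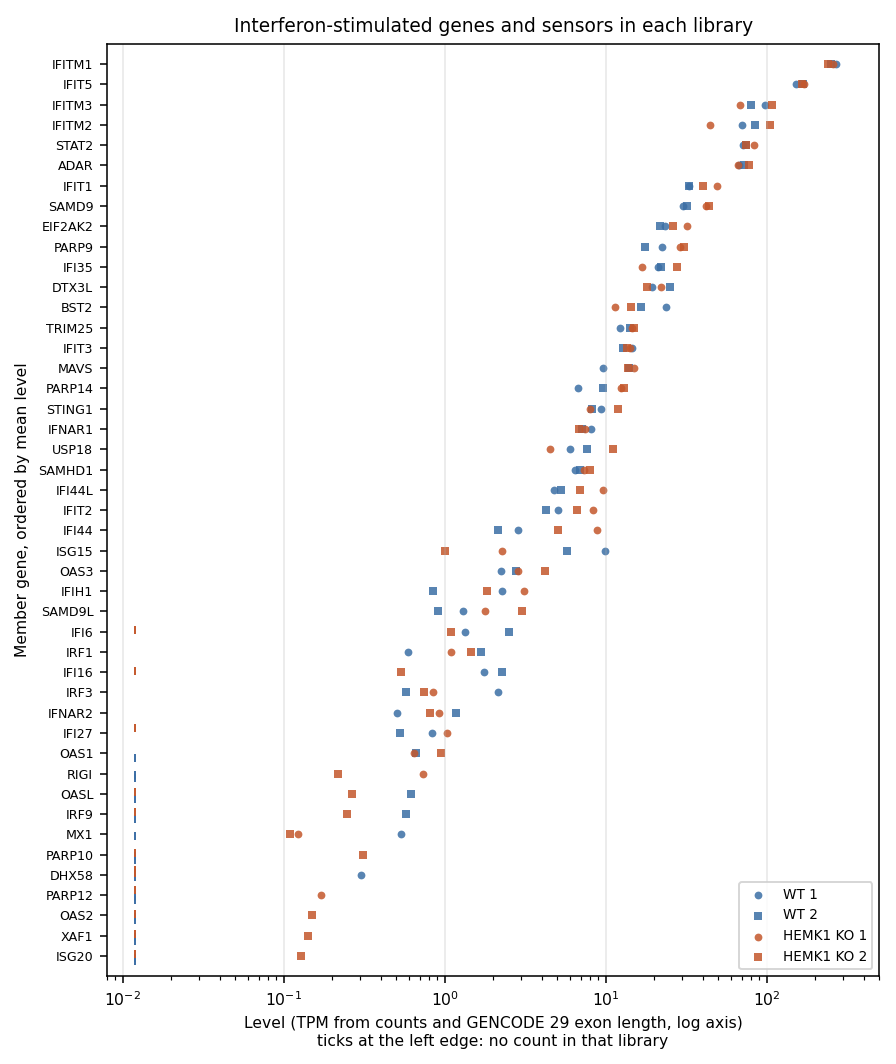
Level of each of the 45 members with a count in each library, in TPM on a log axis, ordered by mean level; blue symbols are WT and orange symbols HEMK1 KO libraries, circles replicate 1 and squares replicate 2, and ticks at the left edge stand for no count. The 4 libraries of most members above 10 TPM lie close together, while ISG15 is higher in both WT libraries and IFITM2 is spread within the KO group.

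At the low end were some of the genes that are usually read as signs of an ongoing interferon response. Other induced members were higher, such as IFIT1, IFIT3 and IFI44L at means of 38.8, 13.7 and 6.66 TPM. MX1, a GTPase that blocks viral nucleocapsids, had 4 and 0 counts in WT and 1 and 1 in KO libraries. OAS2, ISG20 and XAF1 each had 1 count over all 4 libraries, and OASL, IFI6 and IFI27 had between 3 and 9. IRF7, the factor that amplifies interferon transcription, and CGAS, the cytosolic DNA sensor, had 0 counts in all libraries, which allows up to 1.21 and 1.12 CPM in WT and 1.05 and 0.937 CPM in KO libraries (3 counts per library, counting error only). The interferon genes IFNB1, IFNA1, IFNL1 and IFNE also had 0 counts in every library.

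Between KO and WT libraries no member passed the test. The largest estimate above 0 was that of SAMD9L and the largest below 0 that of BST2. Of the 47 members, 27 passed the filter on low counts, and the quasi-likelihood test of edgeR, adjusted over 10670 genes by Benjamini-Hochberg, called 0 higher and 0 lower, against 0.0469% and 0.281% of all tested genes. At an unadjusted p under 0.05 edgeR gave 4 of these 27 members higher and 0 lower in KO. Of all tested genes, 4.09% and 4.35% were at that p. Without the filter, edgeR gave 5 members higher and 2 lower at that p. DESeq2 on the filtered genes gave 0 members at that p, against 1.09% of all tested genes higher and 2.36% lower. It called 0 members, against 0.0375% and 0.375%. The 4 higher members in the filtered edgeR fit were PARP9, PARP14, IFI44L and SAMD9. Which members were at that p depended on the library left out, and without KO replicate 2 some were lower in KO. With 1 library left out, the log2 fold change ran from 0.27 to 0.72 for PARP9 and from 0.36 to 0.78 for PARP14. It ran from 0.39 to 0.85 for IFI44L and from 0.35 to 0.43 for SAMD9.

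Of the 27 tested members, 18 had a log2 fold change above 0, against 51.2% of all tested genes. The members' median log2 fold change was 0.13 (quartiles −0.026 and 0.42), beside 0.0092 (−0.21 and 0.21) over all tested genes. That median was 0.21 without KO replicate 1 and 0.022 without KO replicate 2. Both KO libraries lay above both WT libraries in 10 tested members and below them in 2, where 21.2% and 18.0% of all tested genes did so. An adjusted p was given for 29 members in the authors' deposited table, and the smallest was 1.00.

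**Figure D3:**
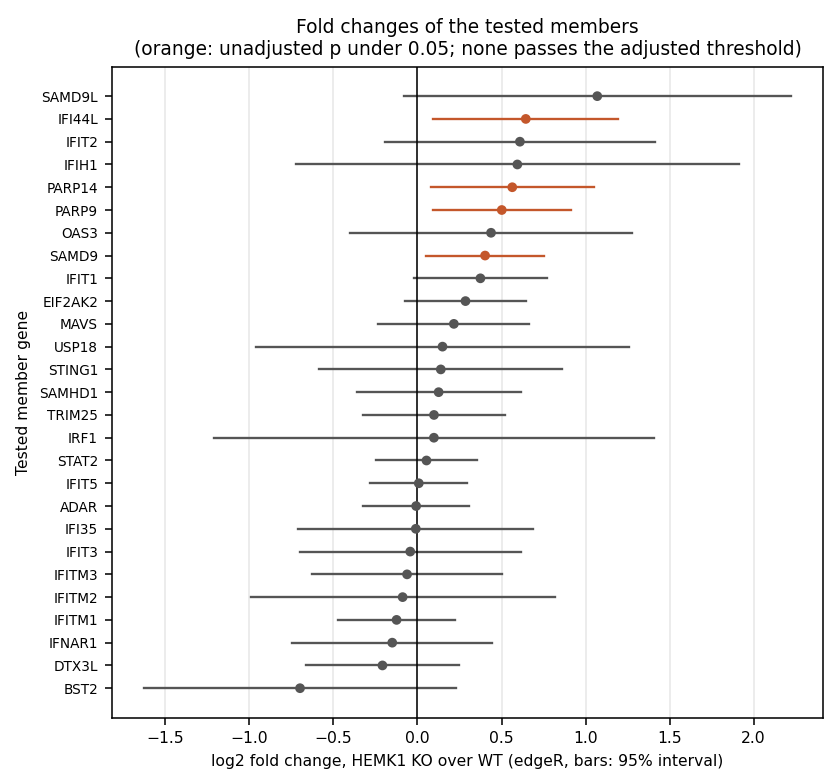
log2 fold change of HEMK1 KO over WT for the 27 tested members, from edgeR; points are estimates and bars 95% intervals, orange where the unadjusted p is under 0.05. Intervals of PARP9, PARP14, IFI44L and SAMD9 lie above 0, and no interval lies below 0.

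Library by library, the members' difference from WT was carried more by KO replicate 2. The median log2 CPM difference over the 27 tested members was 0.24 for KO replicate 2 against WT replicate 1 and 0.30 against WT replicate 2. For KO replicate 1 it was 0.10 against WT replicate 1 and 0.0021 against WT replicate 2. Within groups it was 0.12 between KO replicates and −0.0038 between WT replicates, so the difference between the KO libraries was about as large as that between KO replicate 1 and WT replicate 1. Over all tested genes these medians lay between −0.0053 and 0.034.

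**Figure D4:**
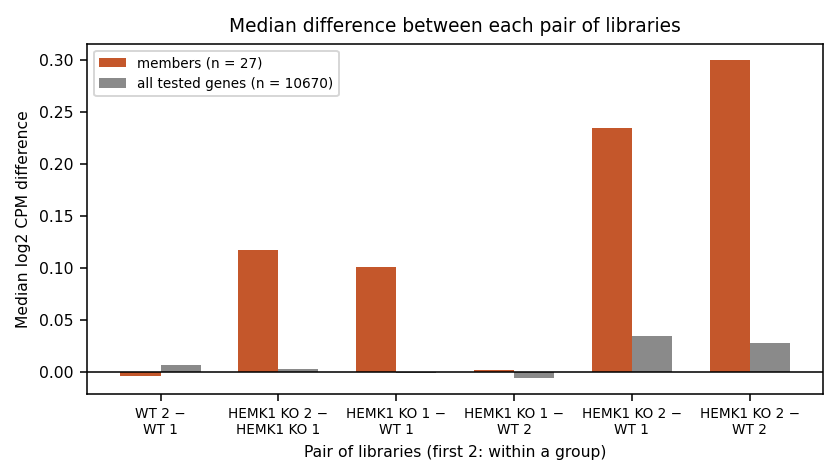
Median log2 CPM difference for each pair of libraries, over the 27 tested members (orange) and all 10670 tested genes (grey). Pairs with KO replicate 2 give the largest medians of the members, 0.24 and 0.30 against the WT libraries and 0.12 against KO replicate 1.

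Of 8 receptor and signalling members, 4 were tested and 0 were called, against 0.0469% higher and 0.281% lower of all tested genes. The others had too few counts to test. IFNAR1, the chain that recruits TYK2, had 18.3 and 15.2 CPM (scaled by TMM here and below) in WT and 15.3 and 14.8 CPM in KO libraries. The groups overlapped, with WT replicate 1 the highest library, and the fold of KO over WT was 0.901 with a 95% interval of 0.597 to 1.36 (edgeR adjusted p = 0.937). IFNAR2, the chain that binds interferon tightly, had 2 and 5 counts in WT and 4 and 4 in KO libraries. Of its exon length 83.2% is shared with other genes in GENCODE 29, so its count is uncertain.

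STAT2, the STAT that is particular to type I and III interferon signalling, had 156 and 155 CPM in WT and 167 and 156 CPM in KO libraries. KO replicate 1 was the highest library and KO replicate 2 stood above the WT libraries by a margin lost in rounding, and the fold was 1.04 with an interval of 0.842 to 1.28 (edgeR adjusted p = 0.958). Its DNA-binding partner IRF9 had 0 and 2 counts in WT and 0 and 1 in KO libraries, with 48.4% of its exon length shared with other genes. IRF3, the factor that MAVS and STING1 activate, had 7 and 2 counts in WT and 3 and 3 in KO libraries, with 19.3% of its exon length shared. IRF1, an activator induced by interferon, had 1.66 and 4.46 CPM in WT and 2.78 and 3.86 CPM in KO libraries. Both KO values lay between the WT values, and the fold was 1.07 with an interval of 0.432 to 2.65. USP18, which removes ISG15 from proteins and damps the receptor, had 4.57 and 5.57 CPM in WT and 3.13 and 8.05 CPM in KO libraries. The KO libraries enclosed the WT libraries, and the fold was 1.11 with an interval of 0.514 to 2.39.

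Among sensors and adaptors, EIF2AK2 was the tested gene whose groups did not overlap. EIF2AK2 encodes PKR, the kinase that senses double-stranded RNA and phosphorylates eIF2α. It had 90.1 and 80.3 CPM in WT and 112 and 96.0 CPM in KO libraries, a fold of 1.22 with an interval of 0.949 to 1.57 (edgeR adjusted p = 0.679). ADAR, which edits double-stranded RNA and so limits sensing, had 233 and 238 CPM in WT and 210 and 258 CPM in KO libraries. The KO libraries enclosed the WT libraries, at a fold of 0.995 with an interval of 0.799 to 1.24.

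Of the RIG-I-like receptors, RIGI and DHX58 were at the edge of detection, while IFIH1 was low but passed the filter. RIGI had 0 counts in both WT and 3 and 1 counts in the KO libraries, and the 95% exact counting interval of the ratio begins at 0.563, so a difference was not detectable at this depth. IFIH1 encodes MDA5, which senses long double-stranded RNA. It had 4.15 and 1.49 CPM in WT and 5.22 and 3.22 CPM in KO libraries. The groups overlapped, and the fold was 1.51 with an interval of 0.606 to 3.76. DHX58, the regulator LGP2, had 1 count over all libraries. Their adaptor MAVS had 40.7 and 56.1 CPM in WT and 57.4 and 55.4 CPM in KO libraries, where WT replicate 1 alone was low and the fold was 1.16 with an interval of 0.851 to 1.59. TRIM25, a ubiquitin ligase of the RIG-I pathway, had 41.9 and 45.7 CPM in WT and 45.2 and 48.6 CPM in KO libraries, again with overlap.

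For DNA sensing, STING1 had 12.9 and 10.8 CPM in WT and 10.1 and 15.8 CPM in KO libraries, so the KO libraries enclosed the WT libraries. IFI16, a nuclear DNA sensor, was counted more in WT: 8 and 11 counts against 0 and 3 in KO libraries. The KO to WT count ratio was 0.135 with an exact counting interval of 0.0255 to 0.457. IFI16 was under the filter on low counts, and in the edgeR fit without a filter its log2 fold change was −2.78 ± 0.91 (SE; edgeR adjusted p = 0.207), so it was not called.

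The IFIT genes, whose proteins bind foreign RNA or work with those that do, lie in tandem on chromosome 10 (IFIT1 at positions 89392546 to 89406486 and IFIT5 at 89414586 to 89421001, GRCh38). IFIT1 had 54.4 and 51.7 CPM in WT and 73.8 and 63.8 CPM in KO libraries. Both KO libraries were above both WT libraries, at a fold of 1.30 with an interval of 0.984 to 1.71 (edgeR adjusted p = 0.615). IFIT2 had 7.48 and 5.95 CPM in WT and 11.1 and 9.34 CPM in KO libraries, also without overlap (fold 1.53, interval 0.875 to 2.66; edgeR adjusted p = 0.699). IFIT3, a partner that stabilises IFIT1, had 13.7 and 11.5 CPM in WT and 12.2 and 12.2 CPM in KO libraries. IFIT5 had 217 and 231 CPM in WT and 223 and 227 CPM in KO libraries, and in both IFIT3 and IFIT5 the KO values lay between the WT values. The 8 tested genes within 1 Mb of this cluster that are not members gave a median log2 fold change of 0.25, with 6 of them above 0.

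The IFITM genes sit side by side at the tip of chromosome 11, and their reads can be shared: 32.5%, 22.7% and 21.3% of the exon length of IFITM1, IFITM2 and IFITM3 overlaps other genes, so their counts are less certain. IFITM1 had 104 and 92.2 CPM in WT and 90.8 and 88.9 CPM in KO libraries. Both KO libraries were below both WT libraries, at a fold of 0.918 with an interval of 0.721 to 1.17 (edgeR adjusted p = 0.907). IFITM2 had 38.6 and 44.6 CPM in WT and 22.3 and 55.7 CPM in KO libraries. IFITM3 had 47.3 and 36.8 CPM in WT and 30.3 and 49.9 CPM in KO libraries. Both were lowest in KO replicate 1 and highest in KO replicate 2, the library with most counts of blood and immune markers, and without KO replicate 1 their log2 fold changes turned from −0.09 and −0.06 to 0.39 and 0.22. The part of those markers in these values was not tested.

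The interferon-induced ADP-ribosyltransferases included 2 of the 4 tested members with the smallest edgeR p. PARP9, which works with DTX3L, had 71.8 and 53.9 CPM in WT and 84.2 and 93.4 CPM in KO libraries. The groups did not overlap, and the fold was 1.42 with an interval of 1.06 to 1.88 (edgeR adjusted p = 0.472). PARP14, a larger family member with macrodomains, had 25.3 and 34.6 CPM in WT and 42.5 and 46.4 CPM in KO libraries, again without overlap (fold 1.48, interval 1.06 to 2.07; edgeR adjusted p = 0.499). DTX3L, the ubiquitin ligase that binds PARP9, had 40.7 and 50.2 CPM in WT and 42.5 and 36.4 CPM in KO libraries, with overlapping groups and a fold of 0.866 (interval 0.632 to 1.19).

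PARP9 and DTX3L are divergent neighbours on chromosome 3, with gene bounds that overlap by 340 bases. PARP9 is on the minus strand (122527924 to 122564577) and DTX3L on the plus strand from 122564238. The ISRE core match in the promoter of each is the same stretch of bases, read from opposite strands. The count ratio of PARP9 to DTX3L was 1.77 and 1.07 in WT and 1.98 and 2.57 in KO libraries. Both KO ratios were above both WT ratios, but the WT libraries differed from each other by more than KO replicate 1 differed from WT replicate 1. With 2 libraries in each group the smallest two-sided p of an exact permutation test is 0.333. This pair was chosen after its values were seen, and the pattern was not particular to it. The count ratios of PARP14 to DTX3L, IFIT1 to IFIT5 and IFIT2 to IFIT3 were also higher in both KO libraries. That of IFI44L to IFI44 was lower in both, and that of SAMD9 to SAMD9L overlapped between groups. The 14 tested genes within 1 Mb of PARP9 that are not members had a median log2 fold change of 0.21. The other PARP members were barely read, with 2 counts of PARP10 and 1 of PARP12 over all libraries.

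SAMD9 and SAMD9L, which restrict poxvirus replication, lie beside each other on chromosome 7. SAMD9 had 73.9 and 75.4 CPM in WT and 94.7 and 103 CPM in KO libraries, without overlap, at a fold of 1.32 with an interval of 1.04 to 1.69 (edgeR adjusted p = 0.510). SAMD9L had 3.32 and 2.23 CPM in WT and 4.18 and 7.41 CPM in KO libraries, the largest fold among tested members at 2.10, with an interval of 0.945 to 4.66 (edgeR adjusted p = 0.617). The KO libraries were above the WT libraries in both genes. Without KO replicate 2 the log2 fold change of SAMD9L was 0.60 instead of 1.07, below those of IFIH1 (0.91) and IFI44L (0.85) in the same fit, and without WT replicate 1 IFIH1 (1.47) exceeded it (1.37). The 13 tested genes within 1 Mb of SAMD9 that are not members had a median log2 fold change of −0.04.

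IFI44L and IFI44 are paralogues on chromosome 1, and IFI44L is a frequent marker of interferon exposure. IFI44L had 17.4 and 18.6 CPM in WT and 32.4 and 24.2 CPM in KO libraries, without overlap (fold 1.56, interval 1.07 to 2.29; edgeR adjusted p = 0.499). IFI44 was under the filter with 5 and 4 counts in WT and 17 and 11 in KO libraries. Its count ratio was 2.65 with an exact counting interval of 1.22 to 6.39, and the edgeR fit without a filter gave an adjusted p of 0.830. In both genes KO replicate 1 was the highest library. The 6 tested neighbours of IFI44L within 1 Mb had a median log2 fold change of −0.01.

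ISG15, the ubiquitin-like protein that induced enzymes attach to other proteins, went the other way in counts, with 8 and 5 in WT and 2 and 1 in KO libraries. The ratio was 0.197 with an exact counting interval of 0.0360 to 0.716, and the edgeR fit without a filter gave an adjusted p of 0.800. BST2, or tetherin, which holds budding virions on the cell surface, had 9.55 and 6.32 CPM in WT and 4.18 and 5.48 CPM in KO libraries. The groups did not overlap, and the fold was 0.616 with an interval of 0.324 to 1.17 (edgeR adjusted p = 0.700). SAMHD1, which depletes nucleotides for reverse transcription, had 26.2 and 26.8 CPM in WT and 26.8 and 30.9 CPM in KO libraries, and its groups did not overlap by a narrow margin. IFI35 had 15.0 and 14.9 CPM in WT and 10.8 and 18.7 CPM in KO libraries, enclosing the WT values. OAS3, an enzyme that makes the RNase L activator, had 6.64 and 7.80 CPM in WT and 7.66 and 11.9 CPM in KO libraries, while its relative OAS1 had 0 and 3 counts in WT and 3 and 5 in KO libraries.

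**Figure D5:**
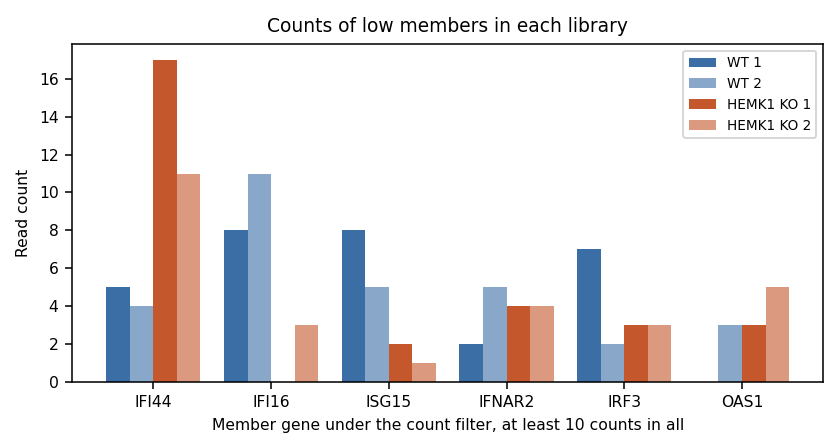
Read counts per library of the 6 members that were under the filter but had at least 10 counts in all; blue bars are WT and orange bars HEMK1 KO libraries, with the paler bar for replicate 2. IFI44 was counted 5 and 4 times in WT and 17 and 11 times in KO libraries, while IFI16 and ISG15 were counted more in WT.

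Of the 20 members under the filter, 2 had no count, 12 had 1 to 9 counts and 6 had 10 or more. In the fit without a filter, which takes in 45 members, edgeR called 0 of them, against 0.109% of 28313 genes higher and 0.441% lower. Among the members under the filter, the exact counting interval of the KO to WT ratio left out 1 for IFI16, ISG15 and IFI44. It included 1 for the other members under the filter with counts, so no difference was detected for them at this depth.

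Members with and without an ISRE core in the promoter table were set side by side as a description. The 14 tested members with a match showed a median log2 fold change of 0.33 (range −0.70 to 0.64). In 6 of them both KO libraries were above both WT libraries, where 21.2% of all tested genes were. The 9 tested members with promoters but no match had a median of 0.10 (range −0.15 to 1.07), and 3 of them had both KO libraries above, set against the same 21.2%. The ranges overlap, and the groups of genes hold linked neighbours such as the IFIT cluster. PARP9 and DTX3L, each counted with a match, share a single site. PARP9, PARP14, IFI44L and SAMD9, whose promoters are printed above, all had a match, as did DTX3L, BST2, IFIT3, IFITM1 and IFITM3, whose estimates lay below 0.

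A wider list of 103 genes of the same pathway that are not members gave 57 tested genes, of which edgeR called 0 higher and 0 lower. At an unadjusted p under 0.05 edgeR gave 3 higher (5.26%) and 3 lower (5.26%), against 4.09% and 4.35% of all tested genes. Of the 57, 31 (54.4%) were above 0, against 51.2%, with a median log2 fold change of 0.027. Both KO libraries were above both WT libraries in 14 genes (24.6%) and below them in 15 (26.3%), against 21.2% and 18.0% of all tested genes. The kinase JAK1 had 59.8 and 66.9 CPM in WT and 66.5 and 74.1 CPM in KO libraries, and TYK2 had 6 and 8 counts in WT and 3 and 4 in KO libraries. The smallest p belonged to SP100, a nuclear body protein induced by interferon, with 37.8 and 39.4 CPM in WT and 21.9 and 18.0 CPM in KO libraries (log2 fold change −0.95 ± 0.22, SE; edgeR adjusted p = 0.162). SP100 passed the threshold without a filter (edgeR adjusted p = 0.0277), with a replicate block (edgeR adjusted p = 0.0237) and without KO replicate 1 (edgeR adjusted p = 0.0219). In that last fit the lone KO library is assumed to vary like the WT libraries. The other fits with a library left out did not pass (edgeR adjusted p = 0.465, 0.513 and 0.146).

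TLR3, the endosomal receptor for double-stranded RNA, had 22.8 and 14.9 CPM in WT and 35.1 and 28.0 CPM in KO libraries (edgeR adjusted p = 0.445). UBE2L6, the conjugating enzyme for ISG15, had 18.7 and 19.0 CPM in WT and 22.3 and 39.0 CPM in KO libraries (edgeR adjusted p = 0.524). Its log2 fold change was 1.02 with KO replicate 2 as the lone KO library, again assumed to vary like WT (edgeR adjusted p = 0.0413), and 0.25 without KO replicate 2 (edgeR adjusted p = 0.889). DDX3X, an RNA helicase that takes part in interferon induction, had 253 and 251 CPM in WT and 309 and 311 CPM in KO libraries (edgeR adjusted p = 0.561). The KO libraries lay above the WT libraries in each of these 3 genes. RNASEH2B, a subunit of the enzyme that removes ribonucleotides from DNA, had 17.0 and 19.7 CPM in WT and 12.2 and 9.98 CPM in KO libraries. APOBEC3G, a cytidine deaminase that acts on retroviral DNA, had 7.48 and 7.06 CPM in WT and 2.09 and 4.19 CPM in KO libraries, and in both of these the KO libraries were below the WT libraries without passing the test.

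Neighbouring genes were looked at for each tested member. Of 26 members with at least 3 tested neighbours within 1 Mb, 16 exceeded the median log2 fold change of their neighbours. No such share was at hand for all tested genes. Clustered members such as the IFIT and the IFITM genes share their neighbours, so the same places count more than once. Those neighbour medians ran from −0.34 around USP18 to 0.25 around the IFIT genes, with a median of 0.05. BST2, with the lowest estimate, lay among 16 tested neighbours with a median of −0.24.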

How the data were processed

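Reads were mapped and counted by the authors with FastQC, Trimmomatic, STAR and HTSeq on hg38, per the submitters' processing notes; their versions, the annotation release, strand setting and filters were not given in the sources used here. Each library's deposited sheet holds raw counts by gene, and the authors' deposited table gives, per its file header, a base mean (a signal, counts divided by size factors), a log2 fold change, scores (its standard error and Wald statistic) and p-values, raw and adjusted, from DESeq2. Libraries were taken from sheet names, each matching 1 sample title.

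Gene identifiers without version were matched to symbols for 61463 of 78686 features, holding 98.3% of counts; exon lengths, shared exon length and positions come from GENCODE 29 (GRCh38, 57288 features), which may differ from the annotation used for counting. Low genes were removed by filterByExpr (minimum count 10), TMM factors were computed, and all 10670 remaining genes were fitted in edgeR 4.0.16 (R 4.3.3, quasi-likelihood with robust = TRUE, genotype as the only term, Benjamini-Hochberg threshold 0.05). Intervals of folds are 95%; count ratios have exact binomial intervals that cover counting error only, since reads carry no molecular identifiers. Marker sums were divided by unscaled totals. The fit was tested on simulated data. Alternatives were DESeq2 1.42.0, 2 other scalings, 2 other filters, a fit that is not robust, a replicate block and leaving out each library. The members and lists were chosen with earlier results of these data known. Members were named by role, with values per library for fixed signalling, sensor, IFIT, IFITM and PARP genes, for the 8 smallest p and the 6 highest levels; BST2, IFI35, SAMHD1, OAS3, OAS1, IFI44 and other low members were added after their values were seen. The values of 1 pathway gene are not reported here.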

Additional observations from a re-analysis of the deposited data

How the results depend on the processing

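No tested member was called under any of the alternatives run, and 274 of 292 log2 fold changes of the 27 tested members kept their sign. The smallest edgeR adjusted p among them was 0.0761, for IFITM2 without KO replicate 2. The sign turned in at least 1 alternative for 11 of the 27 tested members. Apart from the fits with a library left out, the alternatives refit the same libraries, so few signs could turn there. The members' median log2 fold change lay between 0.022 (without KO replicate 2) and 0.21 (without KO replicate 1), and the cause was not tested. Each fit with a library left out has a lone library in 1 group, assumed to vary like the other group, and turned the sign of some genes. Without KO replicate 1 these were STAT2 (−0.029), IFITM2 (0.39), IFITM3 (0.22), IFI35 (0.29), ADAR (0.10) and IFIT5 (−0.01). Without KO replicate 2 they were IRF1 (−0.15), USP18 (−0.69) and STING1 (−0.22). Without WT replicate 1 they were IRF1 (−0.41), IFIT3 (0.084), IFIT5 (−0.034) and IFITM3 (0.13), and without WT replicate 2 IFIH1 (−0.018) and STING1 (−0.02). Over the 4 fits with a library left out, values ran from −0.029 to 0.11 for STAT2, −0.41 to 0.96 for IRF1, −0.69 to 0.63 for USP18, −0.018 to 1.47 for IFIH1, −0.16 to 0.10 for ADAR, −0.22 to 0.39 for STING1 and −0.20 to 0.084 for IFIT3. They ran from −0.034 to 0.020 for IFIT5, −0.90 to 0.39 for IFITM2, −0.47 to 0.22 for IFITM3 and −0.46 to 0.29 for IFI35. IFIT5 also turned with DESeq2 (−0.0087), its size factors (−0.0087) and a minimum count of 20 (−0.036).

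The median of the 57 tested pathway genes became 0.014 with DESeq2, 0.011 with its size factors, 0.017 with library totals and 0.044 with the replicate block. It turned to −0.051 without a filter and −0.0038 at a minimum count of 20, where other numbers of genes are tested, and ran from 0.011 to 0.081 with 1 library left out. Their called counts went from 0 to 1 lower (SP100) without a filter and with the replicate block, and lay between 0 and 1 in each direction when 1 library was left out. Over all genes 5 were called higher and 30 lower. Without a filter these were 31 and 125, with the replicate block 29 and 111, and they ran from 1 to 25 and from 3 to 164 with 1 library left out. Replicate numbers were not shown to pair libraries, since their deviations correlated at −0.035 over genes and the labels name no shared batch. The 20 members under the filter are limited by depth, at 2476471 to 3202039 counts per library.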
